A study of Mus musculus with 43 samples.

Results

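The transcripts examined were those of 10 genes whose proteins coat lipid droplets, release fatty acids from them or bring fatty acids to them: Cidec, Plin1, Plin2, Plin4, Plin5, Pnpla2, Lipe, Mgll, Lpl and G0s2. They were picked by gene name from the 42349 entries of the deposited expression table, and each of the 10 had exactly 1 entry of its own. Expression was measured by sequencing poly A selected RNA (Ion Proton) from female mice aged 15 months, in brain, liver, skeletal muscle and the inguinal fat pad (white adipose tissue, WAT). WT mice (Irs1+/+) and mice with a global knockout of insulin receptor substrate 1 (KO, Irs1-/-) were fed ad libitum (AL) or kept on 30% dietary restriction (DR) for 12 months, begun in steps at 10 weeks of age. This gave the groups WT_AL, KO_AL, WT_DR and KO_DR in each tissue, 16 in all. The labels list 43 libraries, with 2 in each WT_AL group and in WT_DR WAT and 3 in each other group. The global deletion reaches every tissue, so an expression difference in 1 tissue cannot be tied to loss of Irs1 in that tissue.

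The table gives 1 pooled FPKM (fragments per kilobase of transcript, scaled to the mapped total) per gene and group with a 95% confidence interval, both made by the authors, and no value per mouse. Every range in brackets below is that interval, and differences are on the log2 scale with a standard error (SE) taken from the intervals. A difference is called when the Benjamini-Hochberg adjusted p of a two-sided Wald test over all entries of that tissue and comparison is under an FDR of 10%.

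Fat is stored in cells as droplets of triglyceride under a coat of proteins. The perilipins and CIDEC shield that coat, and the lipases work through it in turn: ATGL (gene Pnpla2) takes the first fatty acid, hormone-sensitive lipase (Lipe) the second and monoglyceride lipase (Mgll) the last. G0S2 holds ATGL back, and lipoprotein lipase (Lpl) works outside the cell, on the blood vessel wall, where it frees fatty acids from lipoproteins for uptake. Insulin restrains lipolysis in adipocytes and fasting releases it, so both the genotype and the diet of this study bear on the pathway.

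The targeted gene went against the labels. Irs1 stood at 4.70, 5.95, 3.29 and 4.75 FPKM in liver of WT_AL, KO_AL, WT_DR and KO_DR, at 5.72, 6.31, 5.48 and 5.82 FPKM in skeletal muscle, at 2.47, 3.49, 1.62 and 4.14 FPKM in brain, and at 2.47, 5.37, 6.56 and 2.58 FPKM in WAT. Of the 8 comparisons of KO with WT, 1 had a lower value in KO, WAT under DR, and the 1 called difference was a higher value in brain of the group labelled KO_DR (log2 difference 1.35, SE 0.40, Wald adjusted p 0.0766). Reads outside a deleted stretch would still be counted, and which stretch was deleted is not given in the sources used here. KO below means the group labelled KO.

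Positions are on GRCm38. Plin1 (chr7:79720218-79732903), Lipe (chr7:25379527-25398710) and Pnpla2 (chr7:141455198-141460743) lie on chromosome 7, Cidec (chr6:113424634-113435760) and Mgll (chr6:88724412-88828360) on chromosome 6, and Plin4 (chr17:56100591-56109803) and Plin5 (chr17:56111601-56117596) next to each other on chromosome 17. Plin2 (chr4:86648386-86670060), Lpl (chr8:68880491-68907448) and G0s2 (chr1:193272161-193273217) are on chromosomes 4, 8 and 1. Whether the counting used strand is not given in the sources used here. It is thus not known if reads from bases shared by genes on opposite strands were told apart. Lipe shares 918 exonic bases with the antisense gene 4732471J01Rik, Mgll 167 with the antisense gene Gm26588, and Plin4 17 with Hdgfl2. G0s2 overlaps Lamb3 on the opposite strand with 0 exonic bases shared. The positions above are those of the gene annotation. The expression entries of G0s2 (chr1:193203038-193343878), Plin4 (chr17:56079657-56109803) and Mgll (chr6:88716424-88828360) span wider loci.

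Skeletal muscle of WT_DR also stood apart. Its 7 hepatocyte markers summed to 2567 FPKM, against 20.6 in WT_AL, 46.8 in KO_AL and 107 in KO_DR muscle, and all 7 were called higher in WT_DR than in WT_AL and higher in WT_DR than in KO_DR. Each tissue held the highest sums of its own defining markers, but markers of other tissues were present in further groups too. The 8 muscle fibre markers summed to between 109924 and 185842 FPKM in muscle and to at most 1076 FPKM elsewhere, in KO_AL WAT. Adipocyte markers summed to 557 to 2368 FPKM in muscle and hepatocyte markers to 101 to 691 FPKM in WAT. In bulk tissue, fewer cells of a type and less RNA per cell cannot be told apart.

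The promoters of the 3 genes called between genotypes are shown because these genes moved together in muscle. Each line gives 120 bases 5′ to 3′ on the gene's strand, the stretch nearest to the RefSeq start site that lies in no annotated exon (build GRCm38.p6), in lower case with motif matches in capitals. Plin1 (minus strand, chr7:79732904-79733023) is shown from base -247 to base -128 before its start. Lipe (minus strand, chr7:25390113-25390232) is shown upstream of a start that lies inside the gene, and Pnpla2 (plus strand, chr7:141455068-141455187) upstream of its only listed start.
Plin1: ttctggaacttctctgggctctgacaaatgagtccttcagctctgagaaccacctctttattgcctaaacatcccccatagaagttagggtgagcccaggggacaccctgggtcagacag
Lipe: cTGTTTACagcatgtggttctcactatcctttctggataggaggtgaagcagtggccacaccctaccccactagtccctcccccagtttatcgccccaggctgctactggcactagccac
Pnpla2: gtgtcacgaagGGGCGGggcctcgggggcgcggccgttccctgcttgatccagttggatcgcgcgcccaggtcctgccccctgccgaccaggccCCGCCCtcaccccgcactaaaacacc
The capitals mark TGTTTAC, the core bound by FoxO factors, in Lipe at bases -119 to -113, and in Pnpla2 the GC box GGGCGG on the plus strand at -109 to -104 and on the minus strand at -26 to -21. The Plin1 stretch held none of the motifs searched. TGTTTAC was found on either strand in 1 window each of Lipe and Mgll, 2 of the 13 windows that 9 members have, and in 3.65% of all 32851 windows. GGGCGG was found in 8 of the 13 windows, from 6 members, and in 35.7% of all windows. The nuclear receptor half-site AGGTCA was found in 3 of the 13 windows, of Plin2 and Plin5, and in 16.3% of all windows, and its direct repeat with 1 base between, the form that PPAR factors bind, in none of the 13 and in 0.0396% of all windows. CACGTG was found in 3 of the 13, of Plin2, Lipe and Mgll (7.15% of all windows), CCAAT in 3, of Plin2, Plin4 and Plin5 (37.4%), and TATAAA in none (13.6%). These are matches of letters in a short window and do not show binding.

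Levels differed more often between tissues than between diets or genotypes. Of 229 member tests between pairs of tissues, 185 were called, against 27.4% of all entries in the same 24 pairs, and for WT_AL the share of all entries called was 20.7% for liver against muscle, 21.8% for liver against brain, 20.6% for liver against WAT, 24.8% for muscle against brain, 24.1% for muscle against WAT and 26.9% for brain against WAT. WAT held the highest level of 6 members in WT_AL, 7 in KO_AL, 8 in WT_DR and 8 in KO_DR, and liver held the highest level of the others. Brain held the lowest level of 8 to 10 of the 10 members in each group. Of 120 steps between neighbours in these orders, 76 were told apart by the test, 38 were not and 6 were not tested.

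**Figure D1:**
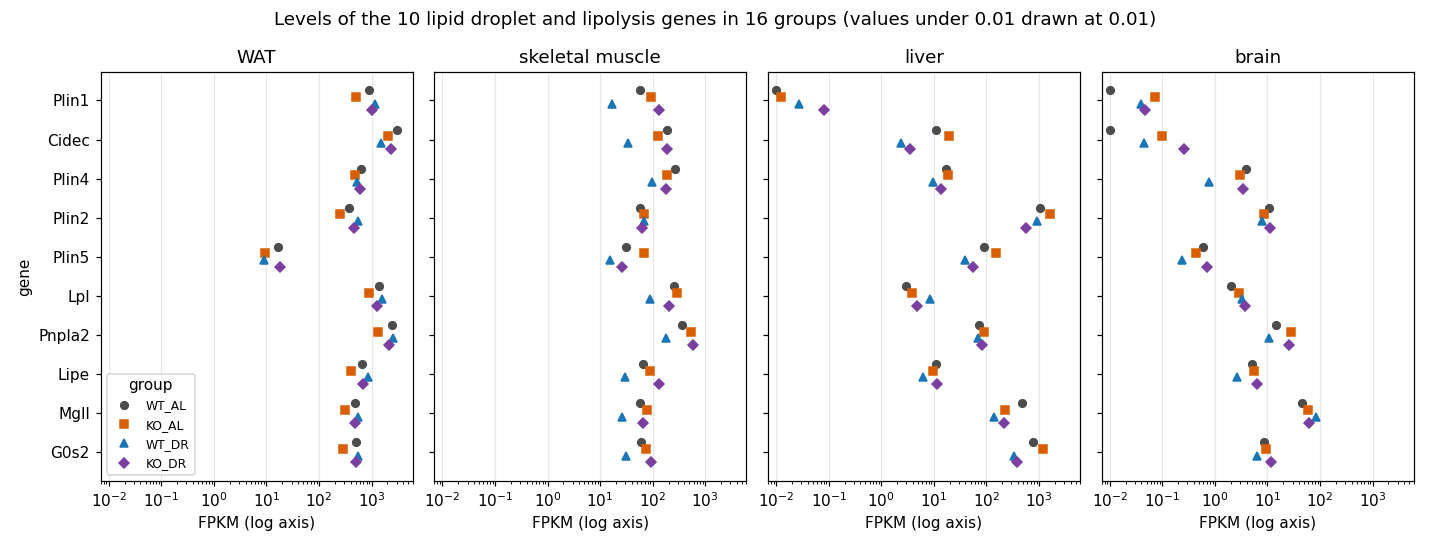
FPKM of the 10 members (rows) on a log axis in each tissue (panels) for the 4 groups (symbols), with values under 0.01 drawn at 0.01. Plin1 and Cidec span from near 0 in brain to WAT levels of 495 to 3106 FPKM, while Plin2 and Plin5 are highest in liver in all 4 groups.

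Plin1, the perilipin of adipocytes, was the member with the lowest levels in liver. Its WAT values were 886 FPKM [552, 1221] in WT_AL, 495 [161, 829] in KO_AL, 1169 [237, 2100] in WT_DR and 999.6 [324, 1675] in KO_DR. Liver and brain stood at 0 to 0.0817 FPKM in all 8 groups, under the 1 FPKM that the test required, and muscle lay between. Cidec, which fuses droplets into larger ones, had the highest WAT level of all members in WT_AL, at 3106 FPKM [0, 8287], with 2033 in KO_AL, 1529 in WT_DR and 2382 in KO_DR. Its intervals in WAT all reached 0, and WAT and muscle were told apart in 3 of the 4 groups, not in KO_DR (adjusted p 0.477, Wald).

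Plin2, the perilipin found on droplets in most cells, was highest in liver, at 1045 FPKM in WT_AL, 1609 in KO_AL, 931 in WT_DR and 576 in KO_DR, but liver and WAT were not told apart in WT_AL, WT_DR or KO_DR. Plin5, the perilipin of cells that burn fat, was also highest in liver, at 89.9, 154, 39.6 and 54.5 FPKM in the same order. Its muscle level was higher than its WAT level in all 4 groups, the only member with that order, and the difference was called in KO_AL (log2 2.88, SE 0.51, Wald adjusted p 6.19e-07) and not in the other 3. Plin4, a perilipin of adipocytes and muscle, had WAT levels of 479.7 to 628 FPKM and muscle levels of 94.9 to 270.5 FPKM, with WAT and muscle told apart in WT_DR alone.

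Among the lipases, Pnpla2 was highest per length in all tissues but brain and liver. It stood at 1315 to 2593 FPKM in WAT, 181 to 577 in muscle, 70.7 to 90.9 in liver and 10.5 to 28.0 in brain. Lipe followed the same order at lower levels, with 405 to 870 FPKM in WAT and 2.68 to 6.33 in brain. Mgll differed least between tissues: 11 of its 24 tests between tissues were called, and it was the lipase with the highest level in brain, 44.8 to 84.9 FPKM, where it breaks down the endocannabinoid 2-arachidonoylglycerol. Lpl had 897 to 1588 FPKM in WAT and 88.4 to 289 in muscle, and 2.04 to 8.52 in liver and brain. G0s2 had 339.9 to 1216 FPKM in liver and 283 to 546 in WAT, and these were not told apart in WT_AL, WT_DR or KO_DR.

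Between genotypes under DR, 3 members were called, all in skeletal muscle and all higher in KO_DR than in WT_DR. The background in that comparison was 2.23% of all 14021 entries tested in muscle, with 124 called higher and 189 called lower, and 0.288% in liver, 1.16% in brain and 0.283% in WAT.

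Plin1 in muscle was 57.7 FPKM [11.8, 104] in WT_AL, 91.0 [65.7, 116] in KO_AL, 17.0 [4.57, 29.5] in WT_DR and 134 [95.3, 173] in KO_DR. The WT_DR interval lay below those of both KO groups and overlapped that of WT_AL. Plin1 was thus 7.90-fold higher in KO_DR than in WT_DR (log2 2.98, SE 0.57, Wald adjusted p 2.74e-05).

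Lipe in muscle was 65.6 FPKM [22.7, 108] in WT_AL, 87.3 [43.5, 131] in KO_AL, 29.7 [13.6, 45.8] in WT_DR and 134 [61.3, 206] in KO_DR. The DR intervals did not overlap, and the difference was 4.49-fold (log2 2.17, SE 0.55, Wald adjusted p 0.00764). Lipe shares 918 of its 5886 exonic bases with its antisense gene, and reads from that part cannot be told apart if strand was not used.

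Pnpla2 in muscle was 363 FPKM [94.96, 630.2] in WT_AL, 532 [207, 856] in KO_AL, 181 [91.6, 271] in WT_DR and 577 [263, 891] in KO_DR. The DR intervals overlapped slightly, and the difference was 3.18-fold (log2 1.67, SE 0.53, Wald adjusted p 0.0788). The Pnpla2 call was lost at an FDR of 5%, with no minimum FPKM (Wald adjusted p 0.107) and once a liver share was subtracted from muscle (0.120, chosen after the data were seen). That share was 1.24 of the 181 FPKM in WT_DR and 0.0683 of the 577 FPKM in KO_DR, so the Pnpla2 difference itself hardly changed. With a t distribution on the few libraries all 3 calls were lost.

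The other members were not called. Cidec stood at 189.6, 125, 34.0 and 189.7 FPKM in WT_AL, KO_AL, WT_DR and KO_DR (KO_DR minus WT_DR log2 2.48, SE 0.91, Wald adjusted p 0.227). Lpl stood at 252, 289, 88.4 and 202 FPKM (log2 1.19, SE 0.50, adjusted p 0.447), and G0s2 at 59.7, 75.97, 31.0 and 91.9 FPKM (log2 1.57, SE 0.70, adjusted p 0.574, Wald). Plin4 (270.5, 184, 94.9 and 180.4 FPKM) and Mgll (57.2, 76.9, 25.9 and 65.0 FPKM) were lowest in WT_DR as well. Plin2, at 58.2, 69.6, 67.3 and 63.5 FPKM, was the 1 member not lowest in WT_DR, and its difference of -0.08 (SE 0.69) has a 95% interval from -1.44 to 1.27. Plin5 was 30.7, 68.1, 15.2 and 25.9 FPKM, highest in KO_AL. Over the 10 members the median log2 difference of KO_DR minus WT_DR was 1.45, with 9 above 0, and over all entries it was 0.04.

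**Figure D2:**
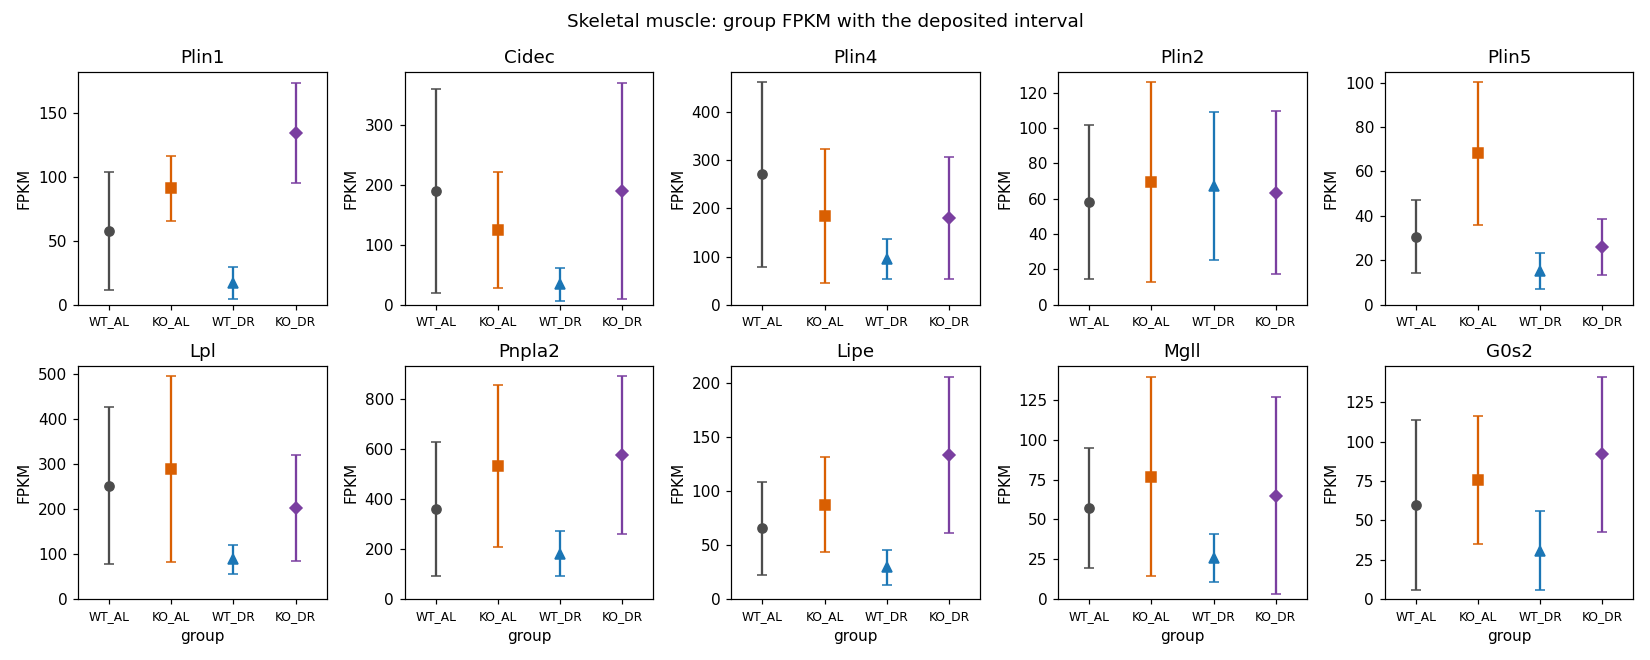
Skeletal muscle FPKM of each member (panels, each with its own linear axis from 0) in the 4 groups, with the authors' 95% intervals as bars. In WT_DR 9 of the 10 members have their lowest value, Plin2 being the exception.

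The genotype difference under DR was not shown to differ from that under AL for any member: no interaction was called in any tissue, where 0.086% of all entries were called in liver, 0.371% in muscle, 0.396% in brain and 0.121% in WAT. At an unadjusted p under 0.05 there were 3 member interactions, all in muscle: Cidec (log2 3.08, SE 1.25), Plin1 (2.32, SE 0.83) and Lipe (1.75, SE 0.81).

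All 7 adipocyte markers were detected in muscle, and they summed to 1558 FPKM in WT_AL, 1792 in KO_AL, 557 in WT_DR and 2368 in KO_DR. In KO_DR minus WT_DR, 6 of the 7 could be tested, all 6 were higher (median log2 2.05), and 3 were called: Cfd (adipsin, log2 2.53, SE 0.53), Retn (resistin, 2.51, SE 0.58) and Adipoq (adiponectin, 2.37, SE 0.68). In WT_DR minus WT_AL all 7 were lower (median -1.44) and 1 was called, Lep (leptin, -4.29, SE 0.65). The directions were those of 9 of the 10 members in both of these comparisons, which share WT_DR, but not in the others. In KO_AL minus WT_AL 3 markers were higher and 4 lower, with Lep called lower (-3.09, SE 0.58), while 8 members were higher and 2 lower. In KO_DR minus KO_AL the 6 tested markers ranged from 0.00018 (Fabp4) to 0.76 (Retn). The members ranged there from -1.39 (Plin5) to 0.61 (Lipe), with 5 higher and 5 lower. None of these KO_DR minus KO_AL differences was called. No marker was at 0 in any muscle group, and the 8 muscle fibre markers had a median of -0.02 in KO_DR minus WT_DR with none called. The part of adipocyte RNA in the muscle differences of the members was not tested.

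**Figure D3:**
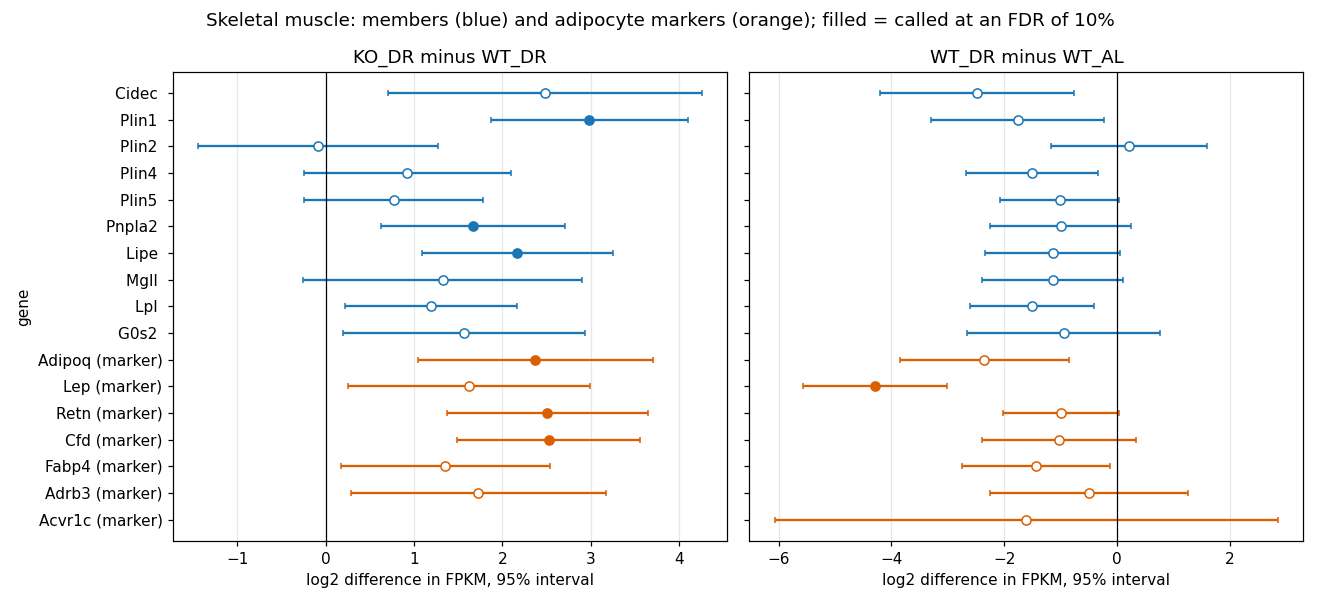
Log2 differences in skeletal muscle with 95% intervals for the 10 members (blue) and the 7 adipocyte markers (orange), KO_DR minus WT_DR on the left and WT_DR minus WT_AL on the right, with filled points called at an FDR of 10%. On the left 9 members and all 6 tested markers lie above 0, and on the right 9 members and all 7 markers lie below 0.

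Set against WAT of the same group, the members did not stand at 1 common level in muscle. In WT_AL, muscle held 6.11% of the WAT FPKM of Cidec, 6.51% of Plin1, 9.92% of Lipe, 11.9% of G0s2, 12.1% of Mgll, 14.9% of Pnpla2, 15.8% of Plin2, 18.3% of Lpl, 43.1% of Plin4 and 187% of Plin5. The adipocyte markers ranged from 3.94% to 21.9% with a median of 10.6%, and Plin4 and Plin5 lay above that range. Its top was set by Acvr1c alone, at 2.29 FPKM in muscle. The next marker was Lep at 12.8%, and Pnpla2, Plin2 and Lpl also lay above that. In WT_DR muscle the markers ranged from 0.786% to 4.78% (median 2.47%), Plin1 stood at 1.46%, Cidec at 2.22%, Lipe at 3.42% and Mgll at 4.67% within that range, and Plin2 (12.2%), Plin4 (18.1%) and Plin5 (166%) were farthest above it. The top was again Acvr1c, at 0.752 FPKM in muscle, and Mgll lay above the next marker, Cfd at 3.75%. In KO_AL the markers ranged from 4.16% to 32.0%. Plin5 (734%), Pnpla2 (40.4%), Plin4 (38.3%) and Lpl (32.2%) lay above that range and the other members within it. In KO_DR the markers ranged from 4.76% to 35.3% and all members but Plin5 (141%) lay within that range. Within muscle, Plin1 amounted to 3.70%, 5.08%, 3.06% and 5.67% of the summed adipocyte markers in WT_AL, KO_AL, WT_DR and KO_DR, and Plin2 to 3.73%, 3.89%, 12.1% and 2.68%. These percentages are descriptions of pooled values and carry no test.

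**Figure D4:**
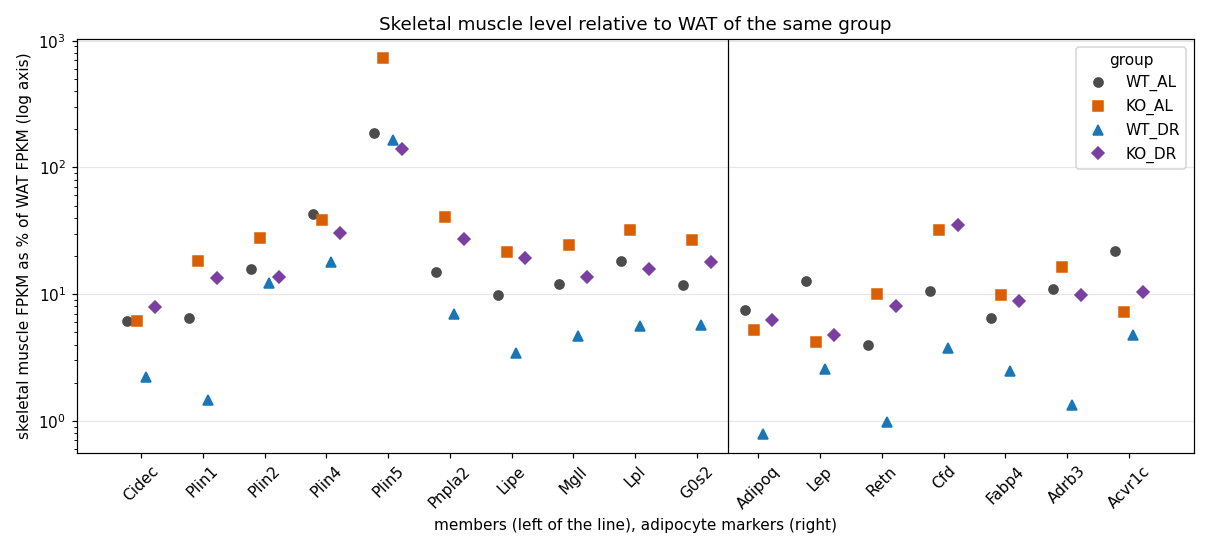
Skeletal muscle FPKM as a percent of the WAT FPKM of the same group (log axis) for the members, left of the line, and the adipocyte markers, right of it, with a symbol per group. In WT_DR both the members and the markers have their lowest medians, 5.62% and 2.47%.

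Brown fat genes differed in another pattern. Ucp1, the uncoupling protein of brown and beige fat, stood at 0.0897 FPKM in WT_AL muscle, 66.9 in KO_AL, 0.230 in WT_DR and 2.05 in KO_DR, and Cidea, a droplet protein of the same cells, at 2.16, 79.1, 2.07 and 22.8 FPKM. Cidea was called higher in KO_AL than in WT_AL (log2 5.20, SE 1.11) and in KO_DR than in WT_DR (3.46, SE 1.04), and lower in KO_DR than in KO_AL (-1.79, SE 0.45). The 4 brown and beige markers summed to 579, 1239, 856 and 1014 FPKM, most of it Cox8b, which muscle also expresses. Plin2, Plin5, Mgll and Lpl also had their highest muscle value in KO_AL, and the other members did not. The part of brown fat RNA in the muscle values of the members was not tested.

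Red blood cell markers (5 globin and heme genes) summed to 949.8 FPKM in WT_AL, 11582 in KO_AL, 1553 in WT_DR and 20283 in KO_DR muscle, and the 6 epithelial markers of mammary gland to 7.97, 20.4, 5.21 and 25.1 FPKM. Macrophage markers summed to 89.6, 103, 55.4 and 35.4 FPKM, endothelial markers to 34.0, 35.0, 28.1 and 34.95 FPKM. The 7 neuronal and glial markers summed to 42.1, 31.8, 8.36 and 78.5 FPKM, most of it Mbp, the myelin protein of nerves, which was called higher in KO_DR than in WT_DR (log2 3.53, SE 0.68), while 3 of the 7 were at 0 in KO_DR. The part of these in the results for the members was not tested.

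The median hepatocyte marker stood in WT_DR muscle at 1.75% of its liver FPKM, and that share of the liver level would amount to 16.3 of the 67.3 FPKM of Plin2, 5.93 of the 31.0 FPKM of G0s2 and 2.40 of the 25.9 FPKM of Mgll. For Plin1, Lipe and Cidec it would amount to under 1 FPKM. With the share of each group subtracted from its muscle values, the Plin1 and Lipe differences were 2.98 and 2.17, both still called (Wald adjusted p 4.30e-05 and 0.0123). With under 1 FPKM removed and the SDs left as they were, these differences could hardly change. The part of liver RNA in the muscle differences was not tested.

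Between diets in WT, no member was called in any tissue, against 0.236% of all entries in liver, 1.4% in muscle, 0.224% in brain and 0.57% in WAT, while 7 member tests had an unadjusted p under 0.05. In muscle 9 of the 10 members were lower in WT_DR than in WT_AL, with a median log2 difference of -1.14 against -0.06 over all entries. The lowest values were for Cidec (-2.48, SE 0.88, Wald adjusted p 0.248), Plin1 (-1.76, SE 0.78, adjusted p 0.689), Lpl (-1.51, SE 0.56, adjusted p 0.327) and Plin4 (-1.51, SE 0.60, adjusted p 0.441). This comparison shares the WT_DR group with the genotype comparison under DR, so the opposite signs of the pair are not separate evidence. The authors' own Cuffdiff analysis, also at an FDR of 10%, lists Cidec as down-regulated in both liver and muscle of WT_DR. Here Cidec was called in both with SDs divided by the square root of the number of libraries (Wald adjusted p 0.0276 in liver, 0.000781 in muscle). That setting raised the all-entry calls for diet in WT from 348 to 1956.

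Between diets in KO, no member was called either, against 0.611% of all entries in liver, 0.5% in muscle, 0.365% in brain and 0.707% in WAT, and 3 member tests had an unadjusted p under 0.05. In KO muscle the median difference was 0.05, with 5 members higher and 5 lower under DR. Plin5 stood at 68.1 FPKM [36.0, 100] in KO_AL and 25.9 [13.3, 38.5] in KO_DR (log2 -1.39, SE 0.49, Wald adjusted p 0.506).

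Between genotypes under AL, no member was called in any tissue, against 0.316% of all entries in liver, 0.681% in muscle, 0.203% in brain and 1.29% in WAT, and 1 member test had an unadjusted p under 0.05, Plin5 in muscle (log2 1.15, SE 0.51, Wald adjusted p 0.999992).

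In liver the values of 7 members, Cidec, Plin2, Plin4, Plin5, Pnpla2, Mgll and G0s2, were lower under DR than under AL in both genotypes, with none called. Cidec was 11.2 FPKM [3.07, 19.2] in WT_AL, 19.5 [6.33, 32.7] in KO_AL, 2.37 [0, 5.29] in WT_DR and 3.47 [0.669, 6.28] in KO_DR. Both DR values lay below both AL values, and the interval of KO_DR ended just below where that of KO_AL began. The difference was -2.24 (SE 1.03, Wald adjusted p 0.999964) in WT and -2.49 (SE 0.76, adjusted p 0.150) in KO, so that neither was called. The KO difference was called when a pseudocount of 1 FPKM was added (log2 -2.20, Wald adjusted p 0.0915). With SDs divided by the square root of the number of libraries both were called (Wald adjusted p 0.0276 in WT and 1.96e-06 in KO).

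Plin5 in liver was 89.9 FPKM [32.4, 147] in WT_AL, 154 [76.9, 232] in KO_AL, 39.6 [17.8, 61.3] in WT_DR and 54.5 [29.3, 79.7] in KO_DR, again with both DR values below both AL values (KO_DR minus KO_AL -1.501, SE 0.49, Wald adjusted p 0.255). G0s2, at 773, 1216, 339.9 and 378 FPKM, had the same order of groups with wider intervals (-1.69, SE 1.04, in KO). Plin2 was highest in KO_AL at 1609 FPKM and lowest in KO_DR at 576. Mgll was highest in WT_AL, at 482 FPKM [0, 1101], and 226, 138 and 213 FPKM in KO_AL, WT_DR and KO_DR.

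Lpl, which adult liver makes little of, went the other way, at 2.96 FPKM in WT_AL, 3.91 in KO_AL, 8.52 in WT_DR and 4.87 in KO_DR (WT_DR minus WT_AL 1.52, SE 0.75, p 0.0435 before adjustment in the Wald test and not called). Pnpla2 ranged from 70.7 to 90.9 FPKM and Lipe from 6.34 to 11.4 FPKM over the 4 groups. Over the 9 members tested in liver the median was -0.86 for diet in WT and -0.42 for diet in KO, against 0.03 and -0.03 over all entries. Adipocyte markers summed to 6.19 to 16.4 FPKM in liver. The 7 hepatocyte markers summed to 58202, 117946, 131370 and 140757 FPKM in WT_AL, KO_AL, WT_DR and KO_DR liver, and the 5 red blood cell markers to 2681, 13569, 3469 and 12047 FPKM, and their part in the liver values was not tested.

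**Figure D5:**
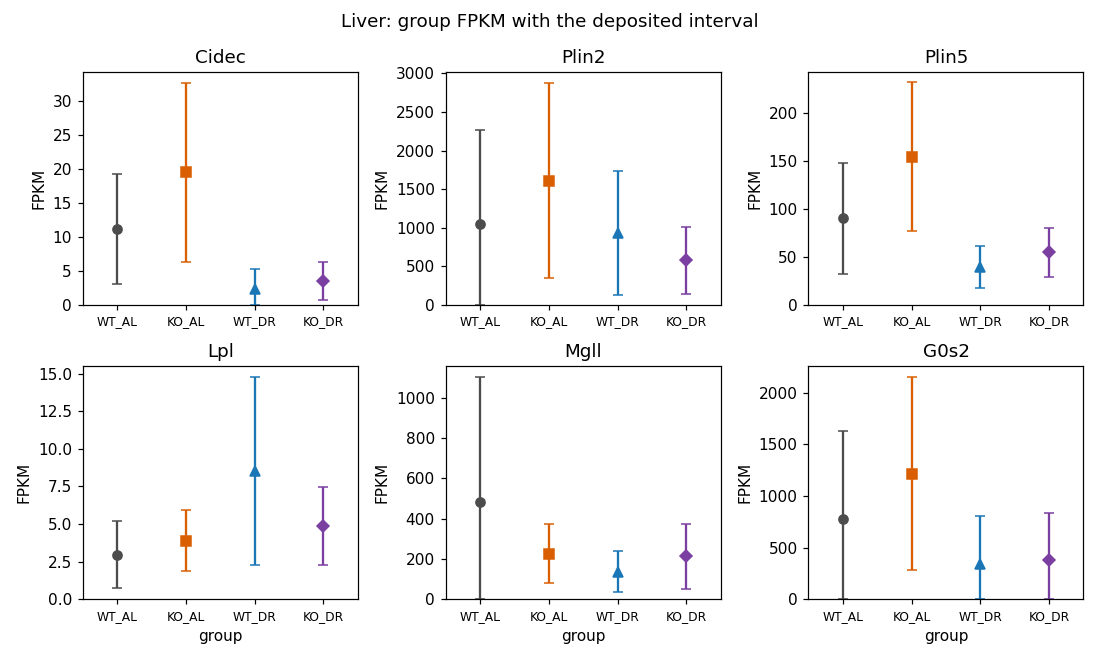
Liver FPKM of 6 members (panels, each with its own linear axis from 0) in the 4 groups, with the authors' 95% intervals as bars. Cidec, Plin2, Plin5, Mgll and G0s2 have both DR values below both AL values, and no difference shown was called.

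In brain 7 members were tested. Pnpla2 was 14.3 FPKM [4.54, 24.1] in WT_AL, 28.0 [14.0, 42.1] in KO_AL, 10.5 [5.48, 15.5] in WT_DR and 25.7 [17.9, 33.6] in KO_DR. Both KO values lay above both WT values, and the DR intervals did not overlap (log2 1.29, SE 0.41, Wald adjusted p 0.122). This difference was called when a pseudocount of 1 FPKM was added (adjusted p 0.0937, Wald) or a minimum of 5 FPKM was set (0.0933), and centring on the median of all entries lowered it to 1.06 (0.429). Lipe had values of 5.16, 5.54, 2.68 and 6.33 FPKM (KO_DR minus WT_DR 1.24, SE 0.49, Wald adjusted p 0.339). Mgll had 44.8, 59.6, 84.9 and 62.1 FPKM, highest in WT_DR. Plin4 had 3.96, 3.05, 0.783 and 3.40 FPKM, each with an interval that reached 0. Irs1 itself was called higher in KO_DR than in WT_DR brain, against the labels. The median of all entries in KO_DR minus WT_DR brain was 0.23, and the median of the 7 members 0.89. The neuronal and glial markers summed to 5626, 6206, 2997 and 5848 FPKM in brain, and most of the gap between WT_AL and WT_DR was Mbp (3877 FPKM in WT_AL and 1380 in WT_DR). In KO_DR minus WT_DR brain 5 of these 7 markers were higher and 2 lower (median 0.27) with none called, and in WT_DR minus WT_AL 4 were higher and 3 lower (median 0.12). The red blood cell markers summed to 1032, 9907, 970.8 and 3475 FPKM. The part of these markers in the brain values was not tested.

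In WAT no member was called in any comparison. All 10 members were lower in KO_AL than in WT_AL, by log2 differences of -0.89 to -0.39 (median -0.66, against -0.06 over all entries), and all 10 were higher in KO_DR than in KO_AL, by 0.23 to 1.01 (median 0.74, against 0.01). These comparisons share the KO_AL group. Pnpla2, for example, stood at 2428, 1315, 2593 and 2126 FPKM in WT_AL, KO_AL, WT_DR and KO_DR, and the SE of its differences was 0.84 to 1.81. The adipocyte markers summed to 20040, 13640, 25521 and 17187 FPKM in the same order, with a median of -0.58 in KO_AL minus WT_AL and 0.41 in KO_DR minus KO_AL. The 6 epithelial markers summed to 5.496, 85.9, 6.98 and 70.1 FPKM, and 4 of them were called higher in KO_AL than in WT_AL, among them Krt18 (log2 3.80, SE 0.71). Muscle fibre markers summed to 525, 1076, 399.9 and 653 FPKM in WAT, of which Acta1 alone made 507 FPKM in WT_AL. Of the 8, 6 were called higher in KO_AL than in WT_AL, and in WT_DR minus WT_AL 7 were higher (median log2 4.37) with 4 called. Hepatocyte markers summed to 691, 657, 392 and 101 FPKM in WAT. The part of any of these in the WAT values was not tested.

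The wider pathway was followed in 5 lists with 61 of 64 genes found under their own or an older name, the other 3 (Apoc2, Srebf1 and Nr1h3) having no entry of their own. In KO_DR against WT_DR muscle 8 of 58 pathway tests were called, against 1 of 53 in liver, 1 of 46 in brain and 0 of 60 in WAT. The share of all entries called was 2.23%, 0.288%, 1.16% and 0.283% in the same order, and 3 of the 8 muscle calls (Hsd17b13, Apoc3 and Apoa5) were liver genes higher in WT_DR muscle, as were the hepatocyte markers. Of the rest, Cidea, Pparg, Cebpa and Lpin1 were higher in KO_DR, the direction of the adipocyte markers (median log2 2.05), and Fitm2 was lower. The part of adipocyte RNA in these calls was not tested.

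Of 13 further droplet proteins, 1 was called higher and 2 lower in that muscle comparison. Cidea was given above. Hsd17b13, a droplet enzyme of hepatocytes, was 11.9 FPKM in WT_DR and 0.189 in KO_DR muscle, beside the hepatocyte markers. Fitm2, which partitions fat into droplets, was 29.8 and 25.9 FPKM (log2 -0.20, SE 0.06), a small difference that was called. Cav1 and Cavin1, which build the caveolae of the adipocyte surface, were highest in WAT, at 1064 to 1734 and 289 to 435 FPKM, and were not called in any comparison. In brain Plin3, a perilipin of small droplets, was 21.5, 8.15, 6.67 and 21.1 FPKM and was called higher in KO_DR than in WT_DR (log2 1.66, SE 0.41, Wald adjusted p 0.0120).

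Of the 15 genes that control lipolysis, none of the 14 tested was called in KO_DR against WT_DR muscle, where 12 were higher (median 0.72). Prkar2b, a regulatory subunit of protein kinase A, was 16.6 FPKM in WT_AL muscle and 4.04 in WT_DR (log2 -2.04, SE 0.61, Wald adjusted p 0.0696). Fabp4, which carries fatty acids in adipocytes, was 654, 617, 242 and 617 FPKM in muscle. Ces1d, a lipase of liver and fat, was 94.1, 109.6, 63.6 and 143 FPKM there.

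Of the 10 genes found that control LPL or fatty acid uptake, Apoc3, an inhibitor of LPL, and Apoa5, an activator, were called in muscle, both higher in WT_DR than in WT_AL and than in KO_DR. Apoc3 was 0.736 FPKM in WT_AL, 4.51 in KO_AL, 163 in WT_DR and 10.5 in KO_DR, and Apoa5 0.307, 0.321, 23.5 and 1.44 FPKM, the same order as the hepatocyte markers. Apoa5 was also called lower in KO_DR than in KO_AL WAT (1.11 against 12.5 FPKM), where all 7 hepatocyte markers were lower as well (median log2 -3.06) and 2 of them were called. Angptl4, an inhibitor of LPL induced by fasting, was 43.9, 49.8, 13.3 and 28.1 FPKM in muscle and not called.

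Of the 12 triglyceride synthesis genes, Lpin1, a phosphatidate phosphatase, was called in liver and in muscle. In liver it was 29.6, 41.9, 8.94 and 48.9 FPKM (KO_DR minus WT_DR 2.45, SE 0.48, Wald adjusted p 0.000175), and in muscle 89.5, 93.4, 42.6 and 76.02 FPKM (0.84, SE 0.15, adjusted p 4.88e-06). Agpat2, the step before it, was called higher in WT_DR than in WT_AL WAT, at 2461 against 251 FPKM (3.30, SE 0.67, Wald adjusted p 0.00044). Dgat2, which makes the last bond of triglyceride, and Acsl1, which activates fatty acids, had WAT values of 293, 280, 1084 and 393 FPKM and of 291, 445, 961 and 506 FPKM, highest in WT_DR and not called.

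Of the 11 transcription regulators found, 2 were called higher in KO_DR than in WT_DR muscle. Pparg, which directs adipocyte genes, was 9.16, 13.5, 4.22 and 21.3 FPKM (log2 2.34, SE 0.65, Wald adjusted p 0.0198), and Cebpa, its partner, 27.5, 17.6, 12.3 and 34.8 FPKM (1.499, SE 0.24, adjusted p 1.38e-07). Cebpb stood at 64.8, 92.4, 61.3 and 149 FPKM and Rxra at 33.0, 48.6, 51.6 and 58.4 FPKM in muscle, with neither called. The adipocyte markers were also higher in KO_DR than in WT_DR muscle, and their part in the Pparg and Cebpa differences was not tested.

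The entries whose pattern over the 16 groups was most like a member's were other genes of fat for several members. Over log2(FPKM + 1), Pearson's r with Plin1 was 0.997 for Adig (adipogenin) and 0.996 for Adipoq, with Lpl 0.993 for Adipoq, and with Lipe 0.990 for Retn. Plin5 was nearest to Cpt2 (0.971), a carnitine transferase of mitochondria, then to Mavs (0.969), an antiviral signalling protein, and Acadm (0.968), which starts the oxidation of medium-chain fatty acids. Plin2 was nearest to Mgst1 (0.991), G0s2 to H2-D1 (0.984), Mgll to Sptlc2 (0.940), Plin4 to Dpt (0.980) and Cidec to Igkv6-20 (0.992), while Pnpla2 was nearest to Cidec (0.982). These are descriptions over 13255 entries, with 16 points that fall into 4 tissues, and the tissue differences dominate them. With the mean of each tissue subtracted, the nearest entry to Plin1 was Hoxc9 (0.984), with Retn (0.929) second, and to Pnpla2 it was Prr5 (0.925). The nearest entries to Lipe were then Slc24a3 (0.908), Rab34 (0.906) and Aco1 (0.902), those to Lpl were Gm15079 (0.840), Stmn2 (0.838) and Acp5 (0.824), and those to Plin5 were Vaultrc5 (0.915), Hcls1 (0.905) and St3gal5 (0.888), so that the partners named before for these 3 members were not among their nearest.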

How the data were processed

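Libraries were grouped by the labels alone. The authors trimmed reads with cutadapt 1.5, aligned them to GRCm38 and ran Cuffdiff 2.2.1. The FPKM values and their intervals were deposited by the authors as 1 table with a pooled value per group. FPKM is scaled for gene length and depth by the authors' software, which scaled libraries by their geometric mean. The table holds neither counts nor single libraries: depth is unknown, no spread between mice can be computed, and precision is that of the authors' intervals. The median SD was 27.2% to 62.3% of the FPKM over groups. The p-values reflect those intervals only.

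The distance from an FPKM to its upper bound was taken as 2 SD. Log2 ratios, with no pseudocount, were tested by a two-sided Wald test with a delta-method SE and a normal reference, over all entries with status OK, an FPKM above 0 in both groups and at least 1 in one of them, with Benjamini-Hochberg adjustment within each tissue and comparison at an FDR of 10%. The test was checked on simulated data, where it was given the SDs that the errors were drawn with. With errors symmetric on the log scale the share of false calls was near or somewhat above the nominal rate. With skewed errors it was well above that rate. A rate near the nominal one was thus built in for log-scale errors, and error in SDs taken from few libraries was not simulated. The check therefore cannot show how often calls are false here, and a call rests on intervals that hold on the log scale.

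The members, lists and tests were chosen with earlier results of these data known. Genes named outside the members were those of the pathway lists called in any comparison, up to 2 more per list by mean FPKM (1 of these is not reported here), marker genes, Irs1 and the entries with the most similar pattern among single-gene entries with an FPKM of at least 1 in 8 or more groups. Alternatives were an FDR of 5%, SDs divided by the square root of the number of libraries, a pseudocount of 1, no minimum FPKM or one of 5, centring on the median, leaving out the 873 joined entries, a t distribution and, added after seeing the data, subtraction of a liver share from muscle. Promoter windows, 250 bases before to 50 after each RefSeq start, were matched by symbol for 9 of 10 members, and exons came from GENCODE. Software was matplotlib 3.10.9, scipy 1.17.1, pandas 2.3.3, numpy 2.4.6 and Python 3.11.15.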

Additional observations from a re-analysis of the deposited data

Results flagged for a closer look

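For 3 pathway genes the genotype difference differed between diets by the interaction test. Cebpa in skeletal muscle had a genotype difference 2.15 higher under DR than under AL on the log2 scale (SE 0.40, Wald adjusted p 8.51e-05), with 27.5, 17.6, 12.3 and 34.8 FPKM in WT_AL, KO_AL, WT_DR and KO_DR. All 7 adipocyte markers had a positive interaction in muscle as well (median 1.58, 1 called), and their part in the Cebpa value was not tested. Plin3 in brain had a difference 3.06 higher under DR (SE 0.78, Wald adjusted p 0.0354), with 21.5, 8.15, 6.67 and 21.1 FPKM. Fitm2 in skeletal muscle had a difference of -0.71 (SE 0.16, Wald adjusted p 0.00525), with 25.7, 36.6, 29.8 and 25.9 FPKM and an SE of 0.06 for its difference under DR. Marker genes with such a difference were Lep (4.71, SE 0.91), Mbp (4.05, SE 0.91), Alb (-6.71, SE 1.04), Apoa1 (-5.66, SE 1.19) and Apoa2 (-4.87, SE 1.25) in skeletal muscle and Ckm (-6.57, SE 1.36) and Myh4 (-9.07, SE 1.64) in WAT.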

How the results depend on the processing

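No paired analysis was possible because the table holds 1 pooled value per group and no value per library, and for the same reason no library could be left out in turn. With SDs divided by the square root of the number of libraries, member calls were 2 for genotype under AL, 12 for genotype under DR, 9 for diet in WT, 6 for diet in KO and 3 for the interaction, and all-entry calls over the 4 tissues were 1859 (369 as reported), 4857 (571), 1956 (348), 2850 (320) and 1510 (147), and 177147 (100293) between tissues. With a t distribution no member was called for genotype under DR (0), 52 of the member tests between tissues were, and all-entry calls were 5, 22, 2, 26, 11 and 19785 in the same order; fewer degrees of freedom make that test stricter by construction. A pseudocount of 1 gave 1 member call for diet in KO, Cidec in liver, beside 468 all-entry calls (320 as reported). It also gave 300 all-entry interactions (147 as reported), and the cause was not tested. The muscle calls of Plin1 and Lipe under DR held under every alternative run but the t distribution. Dividing SDs by the square root of the number of libraries can only add calls. Subtracting the liver share could hardly change these differences, so neither setting puts the 2 calls to a test. Pnpla2 in muscle under DR lost its call at an FDR of 5%, with no minimum FPKM, with the t distribution and with the liver share subtracted. Small uncalled differences changed sign: centring gave -0.056 for Plin4 in liver and -0.029 for Lipe in brain (genotype under AL) and -0.060 for Lpl in brain (genotype under DR), and subtracting the liver share gave Plin2 in muscle 0.30 for genotype under DR, -0.18 for diet in WT and 0.047 for the interaction. The number of libraries and the wide intervals limit what could be detected, most of all in WAT.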
